A study of Mus musculus with 22 samples.

Results

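Occupancy of chromatin by E2F3a, a transcription factor whose family is best known for control of cell cycle genes, was examined at 37 genes of the glutamate synapse in the mouse nucleus accumbens (NAc). The genes were taken by name, and the list was chosen with earlier results of these data known. They comprised 22 receptor genes (4 AMPA, 6 NMDA, 5 kainate, 6 metabotropic and 1 delta), 11 postsynaptic scaffold genes, 2 subunits of calcium/calmodulin-dependent kinase II and 2 auxiliary subunits of AMPA receptors, out of 21900 protein-coding genes. A gene was given a peak when a peak of the pooled list overlapped its body or lay within 1 kb of it, and a differential site when the authors' deposited table named it as the nearest gene. Coordinates are mm10.

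All animals were wild-type C57BL/6J mice of both sexes that had received intraperitoneal cocaine at 20 mg/kg, or saline, daily for 7 days in the home cage. The NAc, a striatal region of reward learning, was punched on both sides, and nuclei were profiled by CUT&RUN, in which an antibody against a protein directs a nuclease to release the DNA that the protein occupies. The labels list 7 cocaine libraries (2 female, 5 male) and 4 saline libraries (2 female, 2 male) for E2F3a. The control immunoglobulin libraries were not analysed here. Punches hold neurons and glia together, so fewer nuclei with E2F3a at a place and less E2F3a per nucleus cannot be told apart.

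Glutamate released from cortical, hippocampal and thalamic axons excites the projection neurons of the NAc through AMPA and NMDA receptors, while kainate and metabotropic receptors modulate transmission on both sides of the synapse. On the postsynaptic side, receptors are held by layered scaffolds. Membrane-associated guanylate kinases of the Dlg family bind receptors and auxiliary subunits, Dlgap proteins link them to Shank proteins, and Homer proteins tie Shank to metabotropic receptors. Changes of AMPA receptor content in the NAc after repeated cocaine are a long-studied form of drug-induced plasticity.

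E2F3a peaks lay at a minority of the genes, and the gene with the strongest peak was a scaffold. In the cocaine list, 13 of 37 genes had a peak (35.1%, exact 95% interval 20.2 to 52.5%), against 9.79% of all protein-coding genes. In the saline list, 4 of 37 had one (10.8%), against 1.85% of all genes. Because the list was chosen with earlier results known, these shares, and those of sites below, describe it and do not test for enrichment. Differential sites were assigned to 6 genes, 3 higher and 3 lower after cocaine. The remaining 22 genes had neither a peak nor a site.

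Most of the genes are long, and long genes had peaks more often throughout the genome. The median length was 209.9 kb, against 17.1 kb for all protein-coding genes and 33.3 kb for those with a cocaine peak. Among the 23 genes of at least 100 kb, 10 had a cocaine peak (43.5%, exact 95% interval 23.2 to 65.5%), where 20.8% of all genes of at least 100 kb did. The median length of these 23 was 426.8 kb, and genes were not matched for length above 100 kb. Among the 14 shorter ones, 3 did (21.4%, interval 4.66 to 50.8%), against 8.41% of all shorter genes. Both intervals cover counting error over genes only, and each pooled list gives no spread between libraries, so no test was made.

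Sequence was compared at the starts of 3 genes on which the results below turn. Gria2 was the only gene with a tabulated RefSeq promoter window under a peak. Camk2b had a peak close to its start and a higher site, and Dlg4 had the strongest peak. Each window runs from 250 bases before to 50 after a transcription start (RefSeq, GRCm38.p6). In Gria2, at chr3:80802786-80803085 on the minus strand, capitals mark the 179 bases under the cocaine peak. In Camk2b, at chr11:6065699-6065998 on the minus strand, and in Dlg4, at chr11:70023732-70024031 on the plus strand, capitals mark the core GGCGC or its reverse complement GCGCC.

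Gria2: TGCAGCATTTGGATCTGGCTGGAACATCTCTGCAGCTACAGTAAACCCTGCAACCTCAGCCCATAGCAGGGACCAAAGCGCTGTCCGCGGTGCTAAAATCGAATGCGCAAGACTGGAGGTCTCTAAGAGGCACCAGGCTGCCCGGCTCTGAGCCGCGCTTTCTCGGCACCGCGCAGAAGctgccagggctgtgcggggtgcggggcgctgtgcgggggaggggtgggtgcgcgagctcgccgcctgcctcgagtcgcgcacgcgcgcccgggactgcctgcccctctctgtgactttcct

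Camk2b: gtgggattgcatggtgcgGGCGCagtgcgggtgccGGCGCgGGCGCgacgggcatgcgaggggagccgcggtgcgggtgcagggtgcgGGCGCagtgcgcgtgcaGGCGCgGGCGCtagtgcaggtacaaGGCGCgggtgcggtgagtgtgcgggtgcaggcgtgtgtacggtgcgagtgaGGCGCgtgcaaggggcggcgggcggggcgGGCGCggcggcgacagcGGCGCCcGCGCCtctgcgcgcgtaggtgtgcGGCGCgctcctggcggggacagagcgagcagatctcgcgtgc

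Dlg4: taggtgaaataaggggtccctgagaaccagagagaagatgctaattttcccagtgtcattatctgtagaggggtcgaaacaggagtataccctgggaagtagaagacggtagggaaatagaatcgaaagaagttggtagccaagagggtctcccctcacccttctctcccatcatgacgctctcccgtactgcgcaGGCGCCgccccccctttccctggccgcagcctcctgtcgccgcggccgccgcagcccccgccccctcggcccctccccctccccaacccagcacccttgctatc

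The Camk2b window held 13 copies of the core, where neighbouring copies may overlap, and 51 CpG dinucleotides in 300 bases. The Dlg4 window held 2 copies, which overlap in the stretch GGCGCC, and 16 CpG. Windows at the other tabulated starts of Dlg4 held 0 copies. The whole Gria2 window held 2 copies of the core, and its stretch under the peak held 0 of them and 11 of the window's 26 CpG. The 8-base E2F motifs TTTGGCGC, TTTCGCGC, TTTCCCGC and TTTGCCGC were searched on both strands. None was in any of the 37 windows that the reference gives for 24 of the 37 genes, against 2.26% of 32817 windows over all genes and 8.19% of the 1099 windows that a cocaine peak overlapped. The core alone was in 23 of the 37 windows (62.2%), against 36.8% of all windows. Their median GC content was 61.0%, against 52.7% over all windows, and their median CpG count was 15, against 7. Only the Gria2 window (2.7% of the 37) overlapped a cocaine peak, against 3.35% of all windows.

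Receptors and the scaffolds with kinases did not stand clearly apart in peaks. A cocaine peak was at 6 of 22 receptor genes (27.3%, exact 95% interval 10.7 to 50.2%) and at 6 of 13 scaffold and kinase genes (46.2%, 19.2 to 74.9%), and the intervals overlap over most of their range. The receptor genes were the longer, with a median of 298.2 kb against 96.7 kb. Per megabase of gene, the receptors carried 0.8 cocaine peaks and the scaffolds and kinases 1.48. Among the genes of at least 100 kb the shares were 6 of 16 receptors (37.5%) and 3 of 6 scaffolds (50.0%). Per megabase, these long receptors carried 0.83 cocaine peaks and the long scaffolds 0.92. Saline peaks were at 2 receptors and 2 scaffolds.

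**Figure D1:**
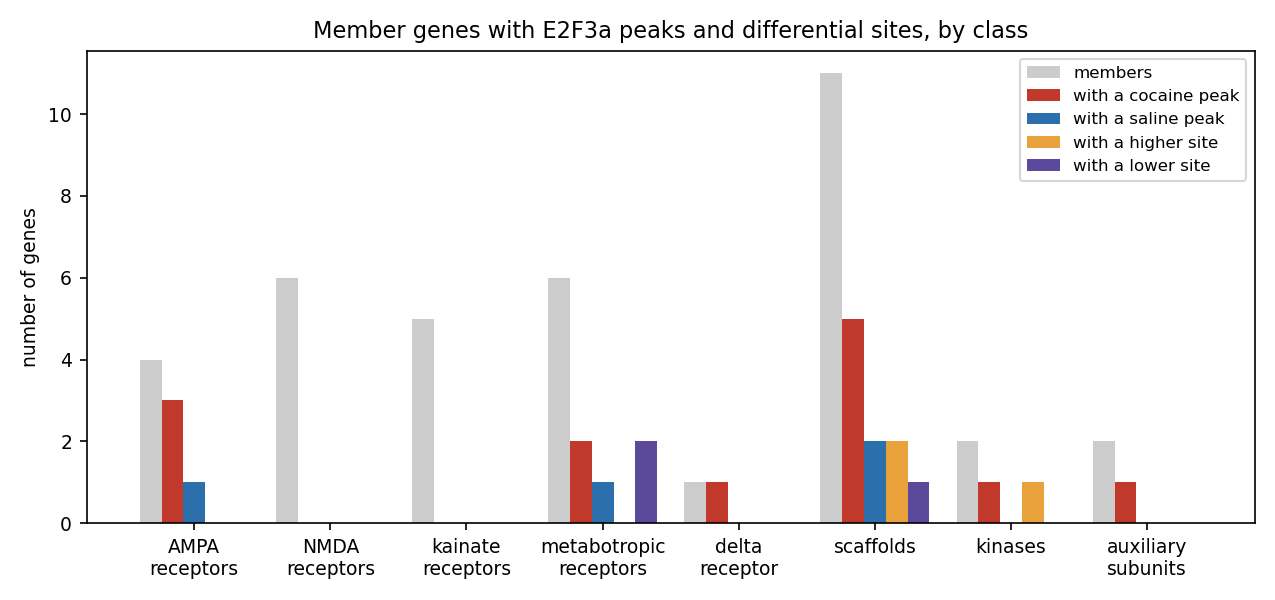
Number of member genes in each class (grey), with a peak in the pooled cocaine list (red) or saline list (blue), and with a site higher (orange) or lower (violet) after cocaine in the authors' deposited table. All 6 NMDA and 5 kainate receptor genes lack both peaks and sites, and the 3 higher sites are at scaffolds and a kinase.

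Within the receptors, peaks fell on AMPA, metabotropic and delta genes. All 4 AMPA subunit genes had a peak in 1 of the lists, a count that pools both lists. The share of all genes with a peak in either list was not counted. Gria1, Gria2 and Gria4 had one after cocaine, and Gria3 had one after saline. Gria2 encodes the subunit that, once its RNA is edited, keeps AMPA receptors impermeable to calcium, and Gria1 encodes the subunit that joins it in the most common forebrain receptor. None of the 6 NMDA receptor genes (Grin1, Grin2a, Grin2b, Grin2c, Grin2d and Grin3a) and none of the 5 kainate receptor genes (Grik1 to Grik5) had a peak in either list. With 6 and 5 genes, exact 95% intervals on these shares reach 45.9% and 52.2%. Median gene length was 298.2 kb for AMPA, 111.8 kb for NMDA and 395.0 kb for kainate receptors, and the classes were not matched for it.

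The highest AMPA peak, at Gria1, spanned chr11:57032019-57032272, with a fold enrichment of 7.07 over the peak caller's background and rank 486 of 3467. Fold enrichments and ranks of peaks are the authors' values or follow from them. The peak of Gria2, at chr3:80802907-80803281, had a fold of 4.42 and its summit 240 bp upstream of a transcription start. It was the receptor peak nearest to a gene end, 1152 bp from the end of the tabulated gene. The Gria4 peak had a fold of 3.76, with its summit 28.1 kb from the nearest end of the gene and 350.3 kb from the tabulated start.

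Gria3, on the X chromosome, was the reverse case. Its saline peak, at chrX:41482741-41483357, had a fold of 5.22 and rank 110 of 725. The nearest cocaine peak lay 584.8 kb away, and no listed differential site was assigned to the gene. Because a peak list applies a threshold to pooled libraries, presence in 1 list and not in the other is not a tested difference.

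Among the metabotropic receptors, Grm5, the group I receptor that Homer proteins bind, had a cocaine peak of fold 3.83 in the interior of the gene, 231.8 kb from its nearest end. Grm7, a presynaptic group III receptor that lowers transmitter release, had a peak in both lists. Its cocaine peak spanned chr6:111160026-111160707 with a fold of 7.63 and rank 379. Its saline peak lay wholly within that interval with a fold of 3.68, and the summits were 231 bp apart. Grid1, which encodes a delta receptor that acts as a synaptic organiser, had a cocaine peak of fold 3.47. Grm2, Grm3, Grm4 and Grm8 had none, and Grm4 had one 9.9 kb away.

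Among the scaffolds, Dlg4 stood highest. It encodes PSD-95, an abundant scaffold of the postsynaptic density. Its cocaine peak, at chr11:70020973-70021950, had a fold enrichment of 19.2, rank 8 of 3467, and a −log10 q of 68.8. The summit lay in the gene, 2255 bp upstream of the tabulated start whose window is printed above. The saline peak covered 63.9% of it, with a fold of 5.09, rank 125 of 725 and a summit 321 bp away.

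Dlg2, which encodes PSD-93, a close relative of PSD-95, carried the second-highest peak, at chr7:91952764-91953805. Its fold was 8.73, rank 250, and the saline peak within it had a fold of 4.37. The summit was deep inside the gene, 108.9 kb upstream of the nearest tabulated start and 495.8 kb from the nearest end of the gene. Folds of the 2 lists were computed on different pools, so the larger cocaine values at Dlg4, Dlg2 and Grm7 are given side by side and not compared. These 3 cocaine peaks of 14 (21.4%, exact 95% interval 4.66 to 50.8%) overlapped a saline peak, against 15.7% of all cocaine peaks.

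The other scaffold peaks were of moderate or low fold. Dlgap1 had 2 cocaine peaks, with folds of 4.42 and 4.08, and Dlgap2 had 1 with a fold of 3.25, the lowest of the 14. Both encode proteins that bridge Dlg and Shank. The Shank1 peak, at chr7:44360321-44360636, had a fold of 4.87 and a summit 289 bp beyond the end of the gene, where it also overlapped 1700008O03Rik, so it cannot be assigned to Shank1 alone. Without the 1 kb margin it drops out, leaving 5 of 13 scaffold and kinase genes. Dlg1, Dlg3, Shank2, Shank3, Homer2 and Homer3 had no peak in either list, and Dlg3 was the farthest from any cocaine peak, at 1711.0 kb.

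Of the kinase subunits, Camk2b had a cocaine peak of fold 4.78 at chr11:6064477-6064782, 974 bp from the start whose window is printed above, and Camk2a had none. Camk2a and Camk2b encode the alpha and beta subunits of the kinase, which phosphorylates AMPA receptors and helps to hold them at the synapse. Of the auxiliary subunits, Cacng2, which encodes stargazin, a protein that carries AMPA receptors to the synapse and binds PSD-95, had a cocaine peak of fold 6.96 and rank 521. Cacng3 had none.

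**Figure D2:**
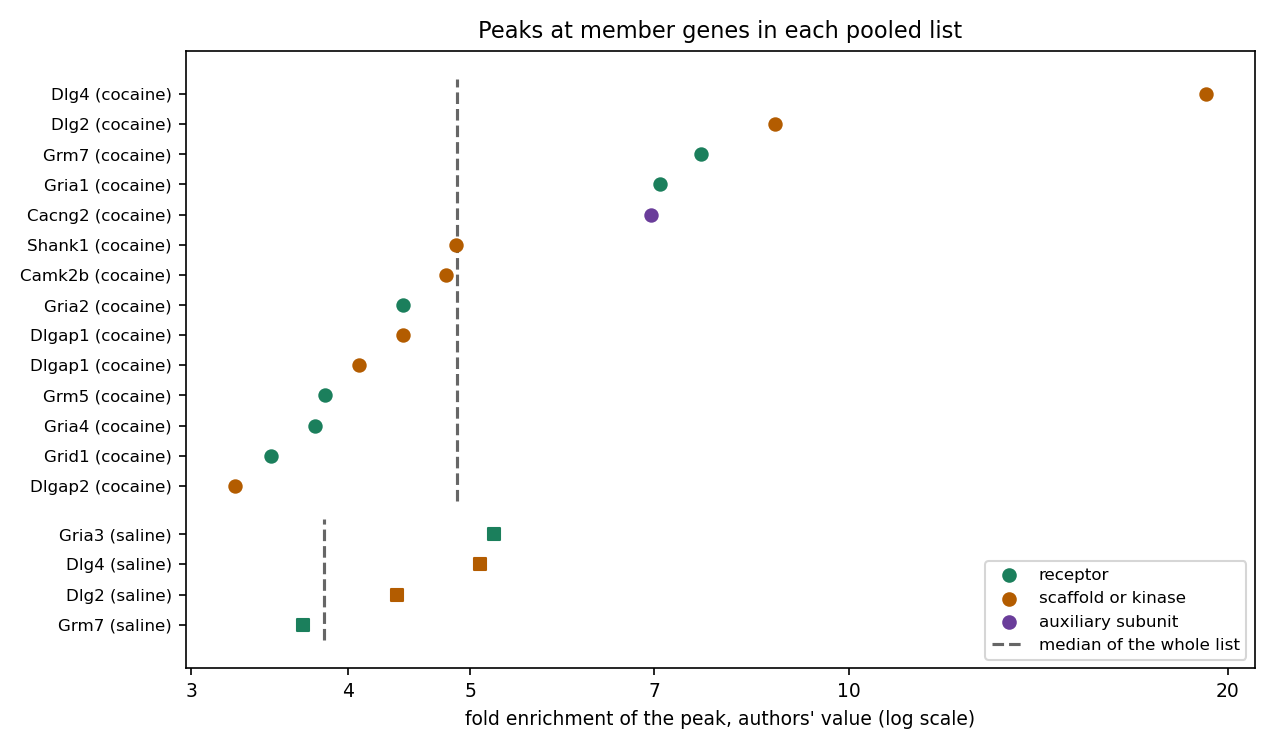
Fold enrichment over the peak caller's background (log scale) of the 14 cocaine peaks (circles) and 4 saline peaks (squares) at the genes, coloured by role; dashed lines are the medians of the whole lists, 4.88 for cocaine and 3.82 for saline. The Dlg4 cocaine peak stands at 19.2, and 9 of the 14 cocaine peaks lie below the list's median.

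Taken over the 14 cocaine peaks, the folds ran from 3.25 to 19.2 with a median of 4.60, where the whole list had 4.88, and 5 peaks were above the list's median. The median was 4.12 at receptors and 4.78 at scaffolds and kinases. For 10 of 14 the summit was over 10 kb from either end of the gene, and for 1 it was within 1 kb of an end. These 10 were among the 11 peaks at genes of at least 100 kb (90.9%), and 72.5% of the 604 cocaine peaks at all protein-coding genes of that length had a summit as far from both ends. No test was made of this difference, which covers 11 peaks. The 23 long genes of the list had a median of 426.8 kb, and the comparison was not matched for length above 100 kb.

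The count of genes depended on how many peaks were listed. The cocaine list was 4.78 times as long as the saline list. When it was trimmed to the 725 peaks of smallest p, the length of the saline list, 3 of the 37 genes (8.11%) had a cocaine peak, namely Dlg4, Dlg2 and Grm7, against 2.12% of all protein-coding genes with a peak in the same trimmed list. The saline list gave 4 of the 37. A larger number of occupied genes after cocaine and a longer list cannot be told apart.

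Differential sites came from the authors' deposited table, which lists 956 sites tested with a negative binomial model, and which gives each site's normalized counts in 6 libraries from cocaine and 4 from saline. The table does not name the libraries. They are numbered here by their order in it, and their sex is unknown. Higher sites were assigned to 3 of 37 genes (8.11%), against 1.01% of all protein-coding genes. Lower sites were also assigned to 3 (8.11%), against 1.79%. Among the 23 genes of at least 100 kb, 2 had a higher site (8.7%), against 2.92% of all genes of at least 100 kb. A lower site was at 2 of the 23 (8.7%), against 5.27%. All 3 higher sites were at scaffolds or a kinase (Dlgap1, Dlgap2 and Camk2b), and the lower ones were at the receptors Grm3 and Grm7 and the scaffold Shank1. The authors chose the sites on the same libraries, so the tests below describe how far the libraries of each treatment overlap and are not independent evidence.

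The values rest on few reads. Within each library the normalized counts were whole multiples of what 1 read is worth, from which 0 to 70 reads per site were recovered after cocaine and 3 to 77 after saline. A read was worth most in cocaine 5 (a normalized count of 2.21), saline 4 (1.88) and cocaine 6 (1.71). At the 476 sites listed as higher, cocaine 5 or cocaine 6 was the highest cocaine library in 94.3%, so values without both are given at each higher site. Whether their scaling contributes to the differences was not tested.

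Camk2b had the clearest higher site, at chr11:5995302-5996300 in intron 5 of 20, 4148 bp from the nearest transcription start in the authors' deposited table and 68.2 kb from the gene's peak. Normalized counts in the 6 cocaine libraries were 11.44 at the lowest, 20.0 at the median and 33.19 at the highest, and in the 4 saline libraries 8.15, 6.36, 8.44 and 5.64. In normalized counts every cocaine library was above every saline library, with cocaine 5 and cocaine 6 the highest. The recovered reads behind them did overlap, at 11 to 23 per cocaine library and 15, 10, 22 and 3 in the saline libraries. The separation was thus seen in normalized counts and not in recovered reads, which are not corrected for depth. Saline 4 stands on 3 reads. The means were 20.7 ± 8.71 (SD, n = 6) and 7.15 ± 1.36 (SD, n = 4), a log2 ratio of 1.53, with p = 0.0095 by the two-sided exact permutation test, the smallest that 6 against 4 libraries can give. By limma over all 956 sites the log2 difference of normalized count + 1 was 1.33 (SE 0.37), with an adjusted p of 0.044. Without cocaine 5 and 6 the log2 ratio was 1.15 and the libraries still did not overlap. Of all sites listed as higher, 11.3% had no overlap between the treatments.

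At Dlgap1 the site, at chr17:70147702-70148800 in intron 2 of 13, lay 80.9 kb from the nearer of its 2 peaks. Normalized counts in the cocaine libraries ran from 8.32 through a median of 27.92 to 61.95, and the saline libraries had 9.78, 19.08, 16.88 and 18.79. Cocaine 2 was below every saline library and the other 5 were above all of them. The means of 30.7 ± 18.2 (SD, n = 6) and 16.1 ± 4.35 (SD, n = 4) gave a log2 ratio of 0.93, with p = 0.1143 by the exact permutation test. The authors' deposited table gives an adjusted p of 0.00078 for the same site. Limma gave an adjusted p of 0.2, and leaving out cocaine 2 gave an exact p of 0.016, so that library decides the call, while without cocaine 5 and 6 the log2 ratio was 0.40.

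The Dlgap2 site, at chr8:14306702-14307700 in intron 2 of 14, was the only one of the 6 that overlapped a peak, the gene's cocaine peak. Cocaine libraries ran from 8.32 through a median of 44.1 to 119.69, and saline libraries had 33.13, 35.61, 29.54 and 46.98. The saline values lay inside the cocaine range, with cocaine 5 at 106.2 and cocaine 6 at 119.69 far above all others and cocaine 1 and 2 below all saline libraries. The means were 56.4 ± 46.4 (SD, n = 6) and 36.3 ± 7.53 (SD, n = 4), a log2 ratio of 0.64 that did not exceed the spread (exact permutation p = 0.5143, limma adjusted p = 0.85). Without cocaine 5 and 6 its sign turned, to a log2 ratio of −0.37. The authors' deposited table lists it as higher with an adjusted p of 0.0039.

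**Figure D3:**
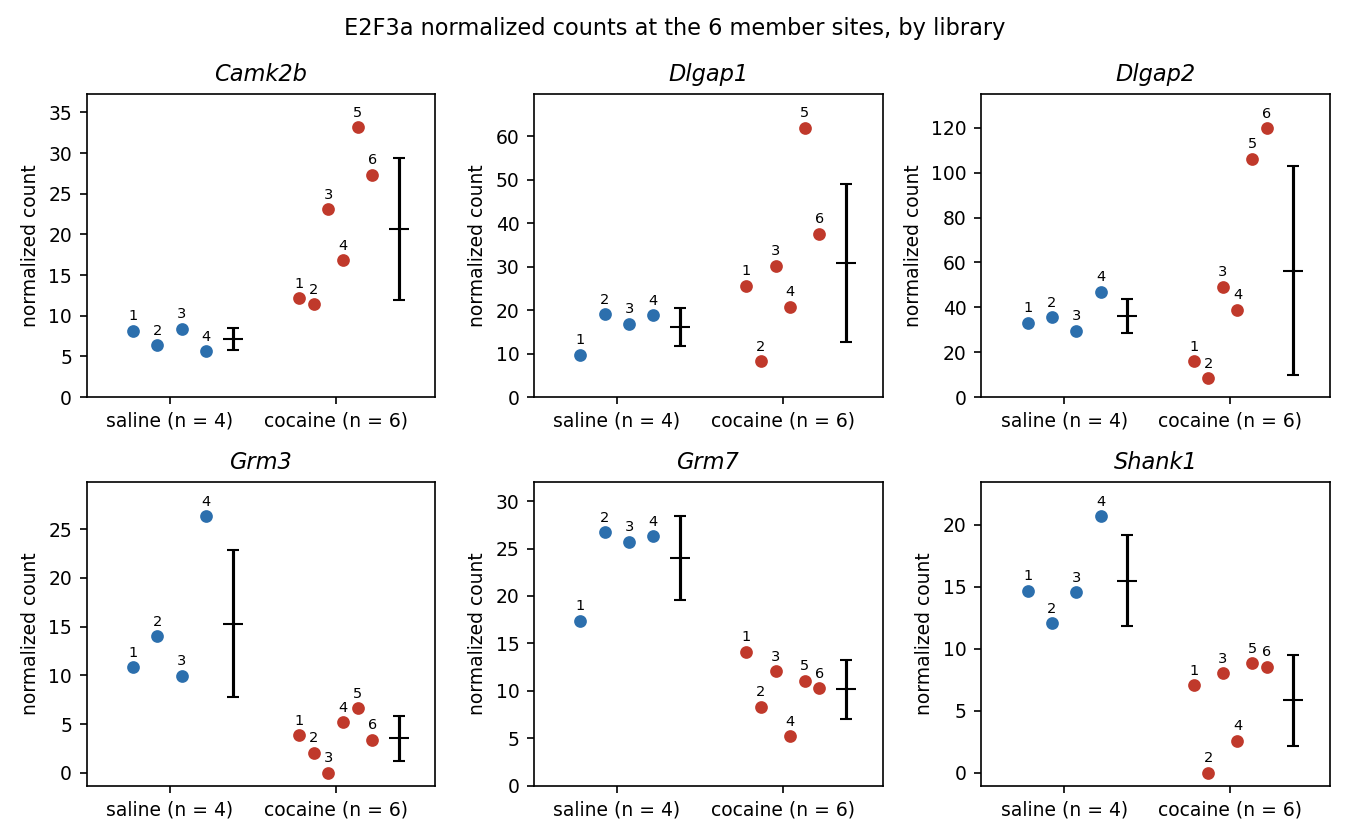
Normalized counts at the 6 sites in each saline (blue) and cocaine (red) library, numbered in the order of the table, with the mean and SD beside each group (black). The treatments do not overlap at Camk2b, Grm3, Grm7 and Shank1, and at Dlgap2 the saline libraries lie within the cocaine range.

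The Grm7 site, the first of the lower ones, at chr6:110681202-110682300, was in intron 1 of 9, 35.6 kb from the nearest start and 477.7 kb from the peak that the gene had in both lists. Normalized counts in the cocaine libraries were 5.19 at the lowest, 10.66 at the median and 14.11 at the highest, and the saline libraries had 17.38, 26.71, 25.71 and 26.31. In normalized counts every cocaine library was below every saline library. The recovered reads behind them overlapped, with 22 in cocaine 1 and 14 in saline 4. The means were 10.2 ± 3.10 (SD, n = 6) and 24.0 ± 4.45 (SD, n = 4), a log2 ratio of −1.24 (exact permutation p = 0.0095, limma adjusted p = 0.044). Without cocaine 5 and 6 the log2 ratio was −1.28, the smallest shift of the 6 sites.

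Grm3 encodes a group II metabotropic receptor of neurons and astrocytes. Its site lay far outside the gene, at chr5:10028002-10029200, 302.8 kb from the nearest start, in sequence that the authors' deposited table annotates as distal intergenic. Cocaine libraries ran from 0 through a median of 3.64 to 6.64, and saline libraries had 10.86, 13.99, 9.98 and 26.31. All cocaine libraries were below all saline libraries, and saline 4 was the highest, on 14 reads. The means of 3.53 ± 2.33 (SD, n = 6) and 15.3 ± 7.55 (SD, n = 4) gave a log2 ratio of −2.11, the largest of the 6 (exact permutation p = 0.0095, limma adjusted p = 0.044). The cocaine values stand on 0 to 6 reads each.

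Shank1 encodes a scaffold at the base of the postsynaptic density. Its site covered the promoter of a transcript at chr7:44311702-44312700, 47.6 kb from the peak beyond the other end of the gene. Cocaine libraries ran from 0 through a median of 7.55 to 8.85, and saline libraries had 14.67, 12.08, 14.58 and 20.67. In normalized counts, again no cocaine library reached the lowest saline library. In recovered reads cocaine 1 and saline 4 were level, at 11 each. The means were 5.85 ± 3.67 (SD, n = 6) and 15.5 ± 3.65 (SD, n = 4), a log2 ratio of −1.41 (exact permutation p = 0.0095, limma adjusted p = 0.045). With a pseudocount of 0.5 in place of 1, limma gave an adjusted p of 0.058. The lower site was thus near one end of Shank1, and the cocaine peak beyond the other end cannot be assigned to Shank1 alone.

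Of the 6 sites, 4 had an exact permutation p below 0.05, against 59.4% of all 956 listed sites, and the same 4 passed limma at an adjusted p below 0.05, against 36.9%. All 3 lower sites had no overlap between the treatments in normalized counts, against 47.5% of the sites listed as lower. A share of this size among 6 sites does not set these genes apart from the rest of the table. Enrichment over background in the authors' deposited table differed in the same direction as the counts at each site. At Grm3 it was 0.32 after cocaine and 2.93 after saline, at Shank1 0.92 and 2.71, and at Camk2b 2.08 and 1.00. The ratios lay closer at Grm7 (2.26 and 3.06) and Dlgap2 (1.36 and 1.21). At Dlgap1 they were 0.89 and 0.63, under the background in both treatments. These ratios belong to the same comparison and are not independent evidence.

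**Figure D4:**
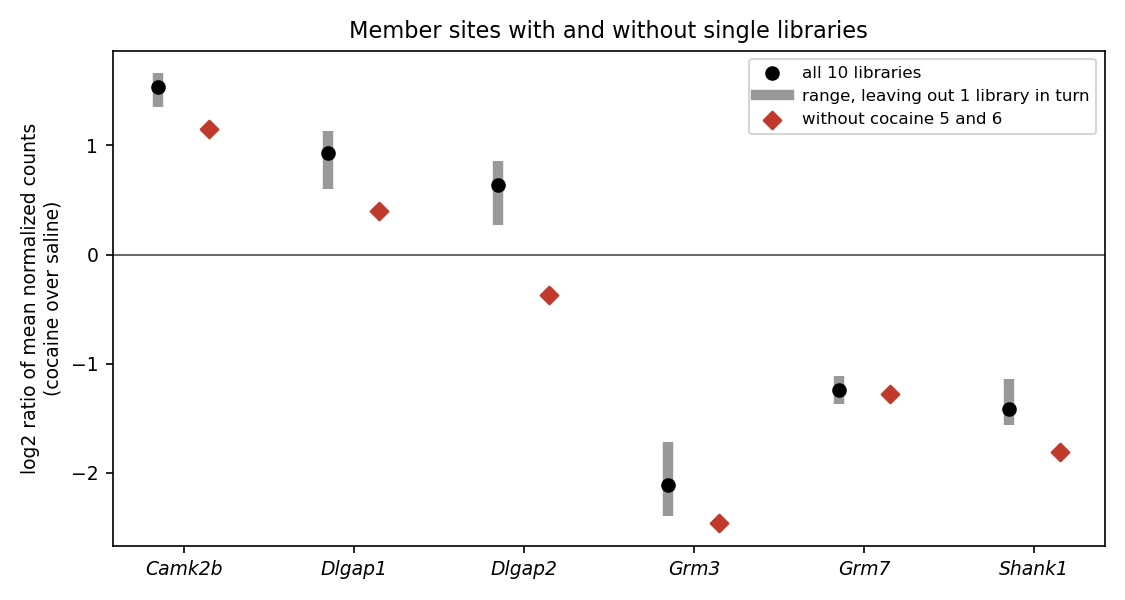
Log2 ratio of mean normalized counts, cocaine over saline, at the 6 sites with all 10 libraries (black), its range when 1 library is left out in turn (grey bar) and without cocaine 5 and 6 (red). The Camk2b ratio goes from 1.53 to 1.15 and the Dlgap2 ratio from 0.64 to −0.37, while the 3 lower sites stay below −1 throughout.

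Of the 6 genes with a site, 5 also had a peak (Grm7, Dlgap1, Dlgap2, Shank1 and Camk2b), and 4 of these 5 are scaffolds or a kinase. The share of all genes with a site that also had a peak was not counted, so no link is read from this. Grm7, Dlgap1 and Dlgap2 are long, at 921.9, 852.3 and 757.7 kb, and the Shank1 peak also overlapped 1700008O03Rik. The site itself overlapped a cocaine peak at 1 of the 6, Dlgap2, and 18.4% of all 956 listed sites did so. At 4 of the 5 the site and the nearest peak of the gene were 47.6 to 477.7 kb apart. Assignment by position in place of the nearest start also gave 6 genes, with Grm3 replaced by Grik5, a kainate receptor subunit. The Grik5 site, at chr7:25076202-25078000, is assigned by the authors to the neighbouring Zfp574, and its libraries overlapped, with means of 82.8 ± 39.0 (SD, n = 6) and 115 ± 4.42 (SD, n = 4) and an exact permutation p of 0.1714.

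Peaks were also counted at other genes of the glutamate synapse. The 36 such genes include other receptors, anchoring proteins and glutamate transporters. A cocaine peak was at 7 of them (19.4%, exact 95% interval 8.19 to 36.0%), against 9.79% of all protein-coding genes. A saline peak was at 1 (2.78%), against 1.85%. A differential site was at 0 of the 36, where 1.01% of all protein-coding genes had a higher site and 1.79% a lower one. Genes with a cocaine peak included Dlgap4, Cacng7, Grip1, Nsf, Baiap2 and Anks1b. Grip1 and Nsf encode proteins that bind AMPA receptor tails, and Cacng7 encodes a relative of stargazin. The median length of the 36 genes was shorter, 81.8 kb, and the interval overlaps that of the 37 genes. Both lists were chosen with earlier results of these data known, so a difference between them was not tested.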

How the data were processed

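The authors deposited 1 peak list per treatment, pooled over sexes, with a fold enrichment (a ratio) and the −log10 p and −log10 q of each peak, per the file headers and names. They also deposited a diffReps table with a log2 fold change, a p-value and its adjusted value per site from a negative binomial test, mean signal and enrichment ratio per treatment, and a normalized count per library (a signal scaled by the authors) for 6 cocaine and 4 saline libraries. The build is mm10, per the submitters' processing notes. Not given in the sources used here are the aligner, the caller settings, the use of the control libraries and the choice of 6 of 7 cocaine libraries.

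Peaks and sites were placed on 21900 protein-coding genes of RefSeq GRCm38.p6. Sites were tested with a two-sided exact permutation test of the means over all 210 arrangements of the libraries (SciPy 1.17.1), and with limma 3.58.1 on log2(normalized count + 1) over all 956 listed sites, with Benjamini-Hochberg adjustment. Adding 1 makes the change at low sites look smaller. Intervals of shares are exact 95% ones by Clopper-Pearson and cover counting error alone. Read values were recovered as whole multiples of a step: of the values worth at most 20 reads, 100.0% were whole to within 0.1 step. Recovered reads over the listed sites ran from 46536 to 102631 per cocaine library and from 41437 to 153621 per saline library. Total depth is unknown. A normalized count of 0 allows up to 3 reads, a normalized count of 3.02 in cocaine 3 at Grm3 and 3.12 in cocaine 2 at Shank1. Limma with voom weights on these reads was added after seeing the data and called 460 of the 956 sites, against 353 by limma. Scripts were tested on simulated data.

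1 gene of the comparison list is not reported here by name. Genes were named by a rule: every gene with a site or a saline peak, and the 12 cocaine peaks of highest fold. The other peaks were named too. The members and lists were chosen with earlier results of these data known. E2F motifs were searched in promoter windows, in place of peak windows, since no genome was used here. The labels do not say that libraries come from separate animals, so p-values measure the spread between libraries. None of 21 pairs within a treatment held identical values. For 2 further control libraries, title and treatment label differ, and they were left out.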

Additional observations from a re-analysis of the deposited data

Results flagged for a closer look

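At the Grm7 site, saline 1 stood apart from the other saline libraries, with a normalized count of 17.38 where they had 25.71 to 26.71. It was nonetheless above every cocaine library, and without it the log2 ratio was −1.37. Chance flags about 1 in 20 groups, and 12 groups (6 sites in 2 treatments) were examined.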

How the results depend on the processing

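The counts of genes kept within 1.5 times of their main value with the gene body alone (12 genes after cocaine, 4 after saline), with a 5 kb margin (13 and 4) and with a −log10 q of at least 5 (9 and 4). With the cocaine list cut to 725 peaks, as many as in the saline list, 3 genes had a cocaine peak, 1 receptor and 2 scaffolds, by construction from fewer peaks. With 50% reciprocal overlap 3 cocaine peaks were shared, as with 1 bp, and 6 genes had a differential site at an adjusted p below 0.01. The number of the 6 sites past 0.05 was 4 in the exact test and ran from 4 to 5 when 1 library was left out in turn. It was 4 on log scales, 4 by voom on recovered reads, 4 without cocaine 5 and 6, 3 by limma with a pseudocount of 0.5, and 2 by limma without sites of mean count under 10, which removed Grm3 and Shank1 from the test. The Dlgap2 log2 ratio reversed to −0.37 without cocaine 5 and 6. The cause was not tested. Over all alternatives the log2 ratio ran from 1.15 to 1.66 at Camk2b, 0.40 to 1.13 at Dlgap1, −2.46 to −1.72 at Grm3, −1.37 to −1.11 at Grm7 and −1.81 to −1.14 at Shank1. No paired analysis was possible because the values per library carry no name, sex or replicate number. The planned search for motifs in windows of 300 and 100 bases around peak summits was not run. Depth limits the low sites most: at Grm3 the cocaine libraries had 0 to 6 reads.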
